A study of Mus musculus with 21 samples.

Results

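The unfolded protein response and chaperone genes described here are 37 genes of the 45706 in the deposited table. They were chosen by name and by known role, with earlier results of these data known. They comprise 11 chaperones and co-chaperones of the endoplasmic reticulum (ER), 4 protein disulfide isomerases, 4 genes for sensors, transcription factors and ER degradation, 6 genes of the ATF4 and CHOP arm, 10 cytosolic heat shock genes and the 2 genes of the mitochondrial chaperonin. All 37 passed the filter on low counts and were tested.

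Bulk RNA-seq was made from myeloid cells sorted from the brains of adult male mice after controlled cortical impact (CCI), a model of traumatic brain injury. Microglia, the resident macrophages of the brain, were sorted as CD45 low CD11b+ cells and are called Mg. Infiltrating myeloid cells were sorted as CD45 high CD11b+ cells and are called Mp. The mice were wild type (WT) or carried the Fgg390-396A knock-in, in which fibrinogen lacks the stretch of its gamma chain that binds the receptor CD11b/CD18. The 7 groups of 3 libraries were sham WT Mg, WT Mg at 1 d, WT Mg at 7 d, Fgg390-396A Mg at 1 d, Fgg390-396A Mg at 7 d, WT Mp at 1 d and Fgg390-396A Mp at 1 d. Mice were 17 to 24 weeks old, each library pooled 2 brains, and sham mice had a craniotomy without the impact. Sham mice were WT only, so the knock-in groups were compared with a WT sham group, and the knock-in itself and the injury cannot be told apart in those comparisons.

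Proteins that enter the secretory pathway fold in the ER with the help of chaperones such as BiP, the product of Hspa5. When unfolded proteins build up, the sensors IRE1 (Ern1), PERK and ATF6 start the unfolded protein response: IRE1 splices Xbp1 mRNA, ATF6 is cut to release a transcription factor, and PERK slows translation and lets ATF4 be made. XBP1 and ATF6 raise ER chaperones and degradation factors, whereas ATF4 raises amino acid synthesis genes and CHOP (Ddit3), and these arms can be engaged apart from each other. The cytosol has its own system, in which HSF1 drives the heat shock genes, and mitochondria fold imported proteins with HSP60 (Hspd1) and HSP10 (Hspe1). Microglia are known for a large change in protein synthesis and secretion when they are activated.

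Library totals ran from 18896957 to 51875767 counts, of which 43.0% to 58.5% fell on ribosomal RNA genes. Over 10 microglia markers the summed level was 12260 to 13730 CPM (counts scaled to a common library size) in sham Mg, 3301 to 5322 in WT Mg at 1 d, 6090 to 7805 in Fgg390-396A Mg at 1 d, 7930 to 10370 in the 7 d Mg libraries and 391 to 1101 in Mp. The summed level of 10 neutrophil markers was 106 to 871 CPM in the Mg libraries and 2797 to 13270 CPM in Mp, and that of 8 monocyte markers was 12.5 to 158 CPM and 2721 to 3748 CPM. For 7 markers of border-associated macrophages it was 4.91 to 252 CPM in Mg and 1348 to 2218 CPM in Mp. The marker genes thus went with the sort labels, and the part of other cell types in the results below was not tested. Of the sham libraries, replicate 3 stood apart in its neutrophil markers (816 CPM against 160 and 249) and in several heat shock genes, so results against sham are also given without it. In bulk libraries, fewer cells of a type and less RNA per cell cannot be told apart. Fgg itself was at 0 in every WT library and at 0.0503 to 0.502 CPM in every Fgg390-396A Mg library. In Fgg390-396A Mp it was at 0, 0 and 0.028 CPM. These very low levels went with the genotype labels in Mg and are a weak check of them at most. Nothing in the labels tells whether a p-value covers more than the spread between these pooled libraries.

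At 1 d after injury, WT microglia had higher levels of 10 of 11 ER chaperones, 4 of 4 disulfide isomerases, both mitochondrial chaperonin genes and 4 of 10 cytosolic heat shock genes than sham microglia. The heat shock factor Hsf1 and Xbp1, Atf4 and Ddit3 were not called higher. Nor were the stress-inducible Hspa1a and Hspa1b, for which sham replicate 3 lay above every WT library at 1 d and the other 2 sham libraries below every one of them. Of the 37 genes, 23 were higher and 1 was lower at an adjusted p under 0.05, against 16.7% of all 23815 genes tested (10.7% higher and 5.97% lower). The median log2 fold change was 1.17 over the 37 genes and 0 over all genes tested. In Fgg390-396A microglia at 1 d, 20 of the 37 were higher than sham and 0 were lower (9.79% of all genes tested were called, 7.6% higher and 2.19% lower), with a median of 0.94. Beside that 0, no member was called lower by DESeq2 either, and Ddit3 was the 1 member lower at an unadjusted p under 0.05. Both comparisons use the same 3 sham libraries, so they are not independent of each other. Without sham replicate 3, 22 members were called in WT and 22 in Fgg390-396A.

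**Figure D1:**
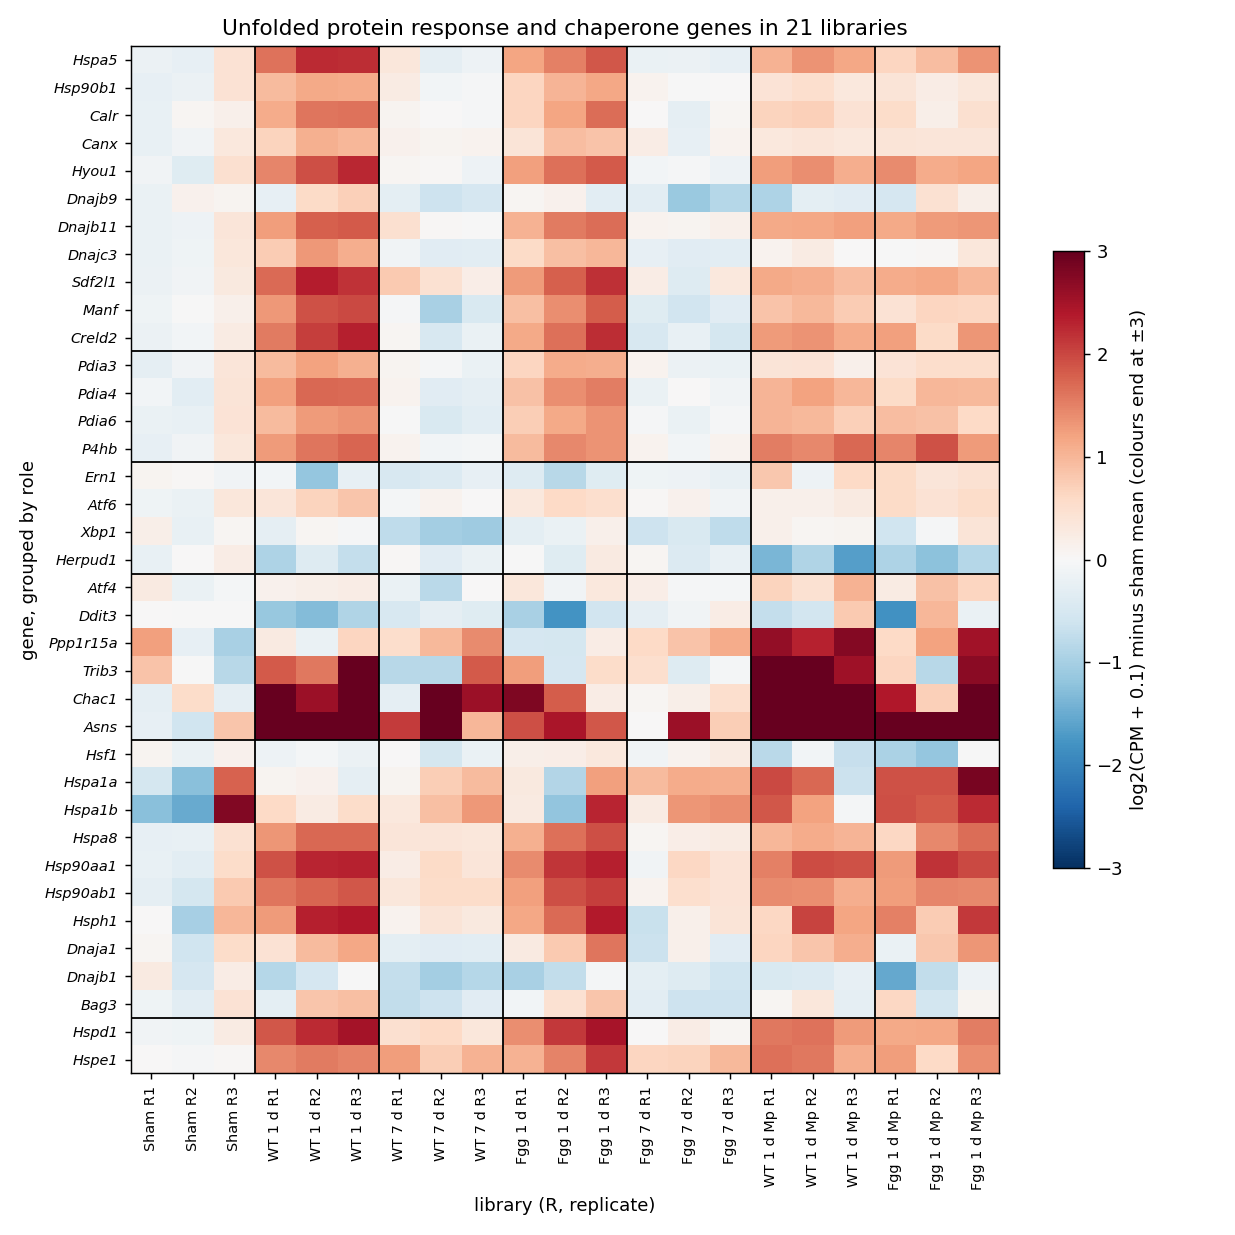
Heat map of the 37 genes (rows, grouped by role) in the 21 libraries (columns, 3 a group; Fgg stands for Fgg390-396A), coloured by log2(CPM + 0.1) minus the sham mean, with colours that end at ±3. The ER chaperones, disulfide isomerases, Hspa8, the HSP90 genes, Hspd1 and Hspe1 are red in the 6 Mg libraries at 1 d and pale in the 6 at 7 d, and sham replicate 3 is red for Hspa1a and Hspa1b.

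**Figure D2:**
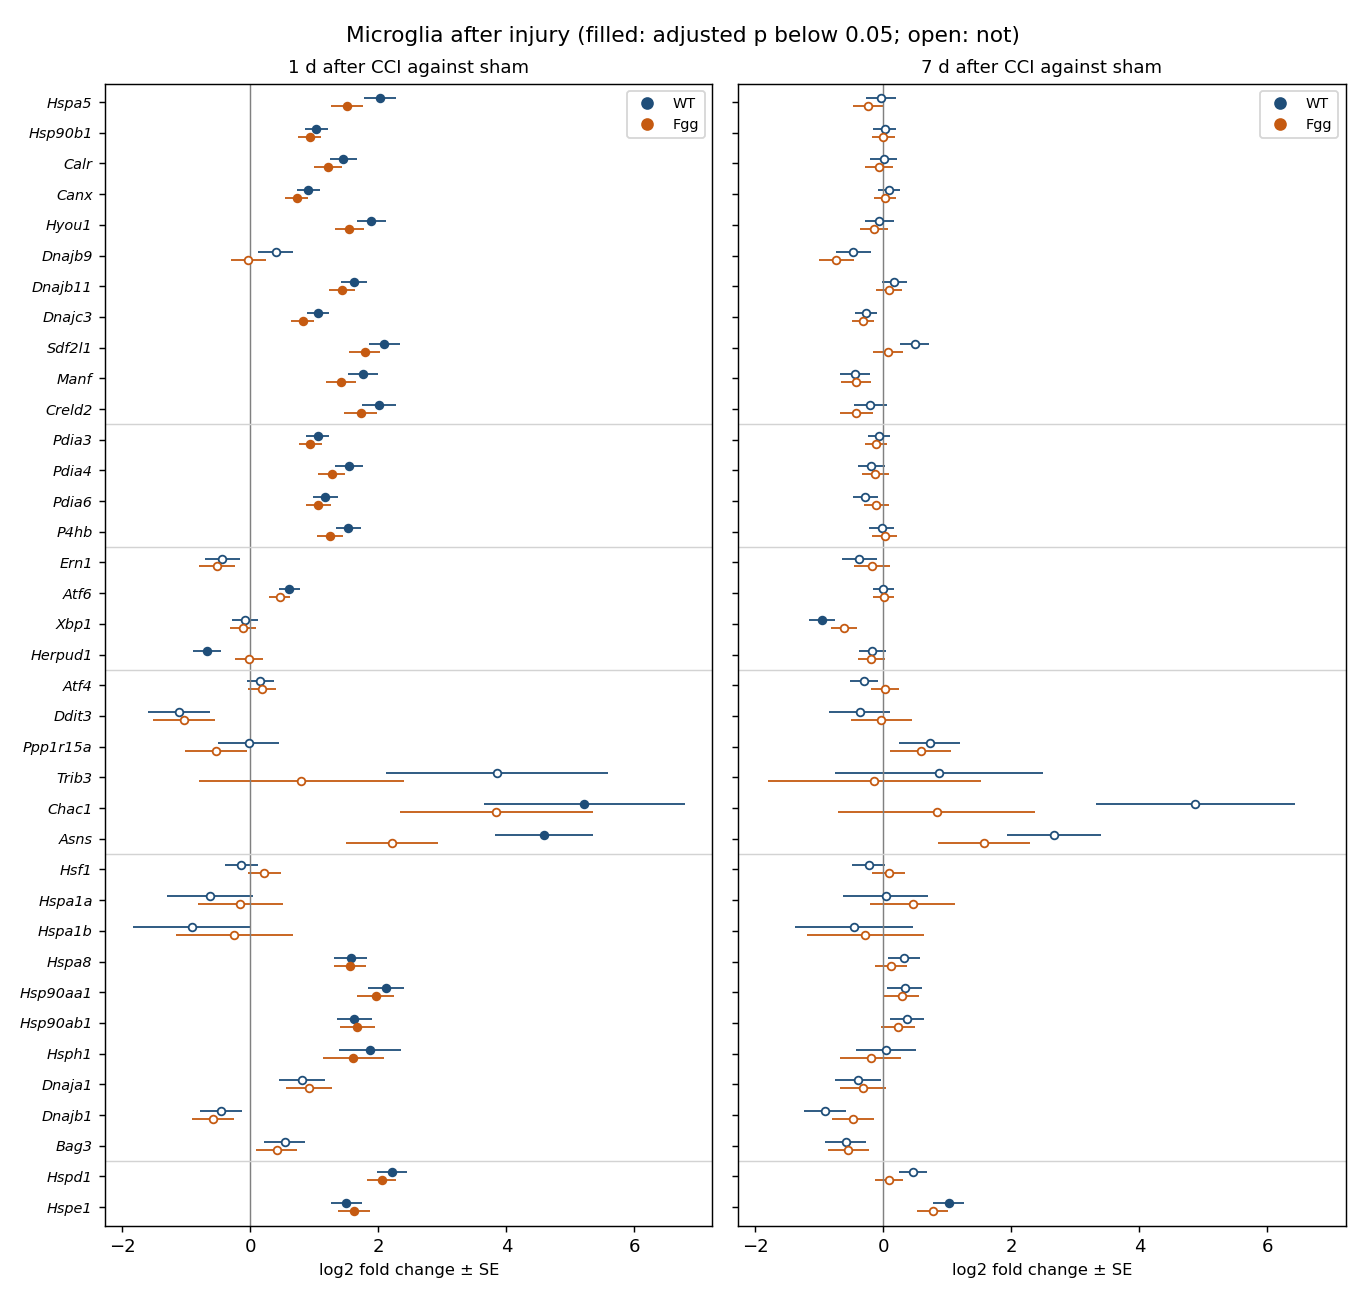
The log2 fold change against sham (x axis, ± SE) of each of the 37 genes (y axis, by role) in WT (blue) and Fgg390-396A (orange, marked Fgg) microglia at 1 d (left) and 7 d (right), filled where the adjusted p was under 0.05. At 1 d, 24 WT and 20 Fgg390-396A points are filled, and at 7 d the filled points are Xbp1 and Hspe1 in WT.

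ATF6 and XBP1 are known to act on ER chaperone genes through a short promoter element, the ER stress response element (ERSE), and the promoters are shown so that the genes that hold it can be set beside their levels. RefSeq promoters of the GRCm38.p6 build were at hand for 30 of the 37 genes, and the 250 bases before the annotated start were searched on both strands. The ERSE letters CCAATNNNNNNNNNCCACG were in 7 of the 30 promoters and in 0.113% of all 32851. The 7 were Hspa5, Hsp90b1, Calr, Canx, Dnajc3 and Creld2 of the ER chaperones and Pdia6 of the isomerases, and each of them was higher at 1 d in both genotypes. So were Sdf2l1, Dnajb11, Pdia3, Pdia4 and P4hb, whose searched promoters did not hold these letters. The call of Canx in Fgg390-396A was lost with the compared groups fitted alone (adjusted p = 0.084) and in 4 of the fits that left out 1 library. The unfolded protein response element letters TGACGTGG were in 0 of the 30 promoters and in 0.563% of all. A match is a description of the letters and not a measured binding site. The whole 250 bases are shown for Hspa5, at chr2:34771840-34772089 on the plus strand, followed by the ERSE with 10 bases on each side for the others (Hsp90b1 chr10:86705628-86705666 and chr10:86705523-86705561, Calr chr8:84847065-84847103 and Canx chr11:50325790-50325828, all minus strand, then Dnajc3 chr14:118937817-118937855, Creld2 chr15:88819510-88819548 and Pdia6 chr12:17266481-17266519, all plus strand). Capitals mark the element, which reads CGTGG first where it lies on the other strand.
Hspa5: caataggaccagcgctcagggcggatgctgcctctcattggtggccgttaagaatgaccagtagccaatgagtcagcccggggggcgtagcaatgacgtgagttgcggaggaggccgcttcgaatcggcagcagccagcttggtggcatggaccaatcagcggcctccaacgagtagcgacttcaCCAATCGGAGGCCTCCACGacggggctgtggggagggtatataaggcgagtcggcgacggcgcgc
Hsp90b1, far match: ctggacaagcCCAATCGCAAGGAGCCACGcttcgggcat
Hsp90b1, near match: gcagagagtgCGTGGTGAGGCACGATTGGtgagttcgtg
Calr: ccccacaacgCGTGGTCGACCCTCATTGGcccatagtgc
Canx: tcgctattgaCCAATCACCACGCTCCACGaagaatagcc
Dnajc3: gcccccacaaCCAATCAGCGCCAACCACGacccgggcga
Creld2: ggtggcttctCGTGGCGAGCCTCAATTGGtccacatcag
Pdia6: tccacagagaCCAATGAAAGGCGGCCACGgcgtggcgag

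**Figure D3:**
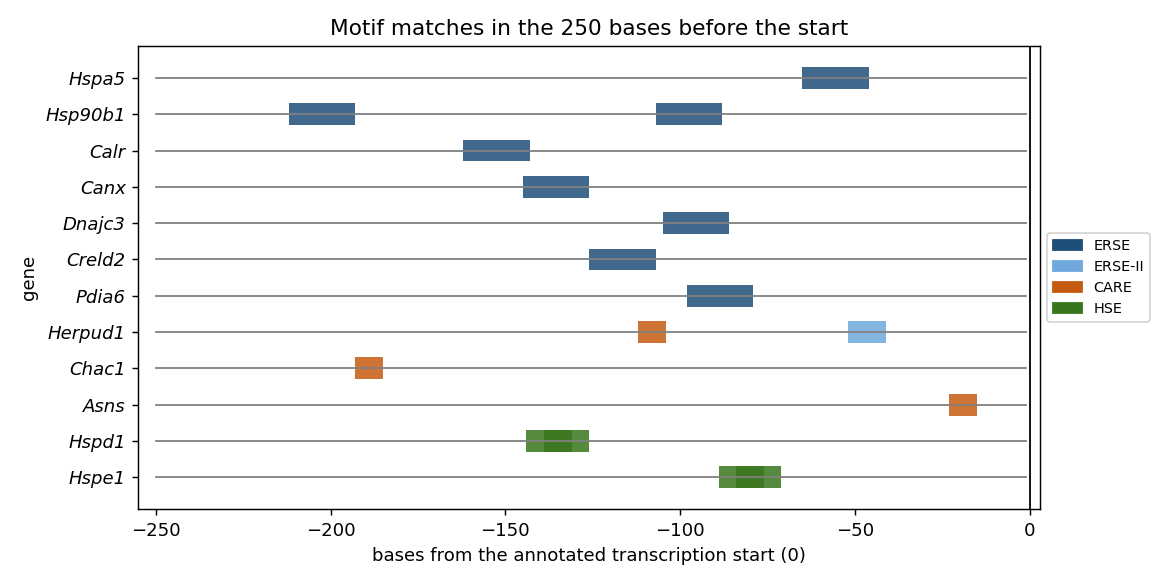
Positions of the motif matches (coloured bars) in the 250 bases before the annotated transcription start (x axis, bases, start at 0) of 12 genes of the set (y axis). The ERSE of Hspa5 lies 47 to 65 bases before the start and the C/EBP-ATF response element (CARE) of Asns 16 to 23 bases before it, and Hspd1 and Hspe1 share a pair of overlapping heat shock element (HSE) matches.

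Among the 11 ER chaperones and co-chaperones, 10 were higher in WT microglia at 1 d than in sham and the same number in Fgg390-396A microglia, with median log2 fold changes of 1.62 and 1.41. Hspa5, which encodes BiP, the main HSP70 of the ER lumen, measured 293, 280 and 448 CPM in the 3 sham libraries, 1020, 1567 and 1556 CPM in WT at 1 d and 750, 955 and 1201 CPM in Fgg390-396A at 1 d. Every injured library lay above every sham library. Hspa5 rose by 2.02 ± 0.25 on the log2 scale (SE, a fold of 4.06, adjusted p = 9.9e-06) in WT and by 1.51 ± 0.24 (a fold of 2.85, adjusted p = 0.00032) in Fgg390-396A.

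Sdf2l1, a partner of BiP that keeps its clients from aggregating, measured 35.5, 37.6 and 49.3 CPM in sham, 132, 207 and 182 CPM in WT at 1 d and 98.8, 140 and 184 CPM in Fgg390-396A at 1 d. The groups did not overlap, and the log2 fold change was 2.09 ± 0.24 (adjusted p = 5.7e-06) in WT and 1.79 ± 0.24 (adjusted p = 5.6e-05) in Fgg390-396A. Hyou1, a large HSP70-like protein that exchanges the nucleotide of BiP, measured 15.5, 12.98 and 23.5 CPM in sham, 46.7, 64.6 and 81.4 CPM in WT at 1 d and 39.3, 52.9 and 59.9 CPM in Fgg390-396A at 1 d. Its log2 fold change was 1.89 ± 0.23 (adjusted p = 7.7e-06) and 1.55 ± 0.22 (adjusted p = 0.00012), again with no overlap. Dnajb11, a J-domain co-chaperone that delivers clients to BiP, measured 50.7, 52.8 and 74.7 CPM in sham, 139, 202 and 209 CPM in WT at 1 d and 120, 173 and 188 CPM in Fgg390-396A at 1 d. It rose by 1.62 ± 0.20 and 1.43 ± 0.20 on the log2 scale.

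Creld2 and Manf encode small secreted proteins of the ER stress response. Creld2 measured 15.04, 16.0 and 20.3 CPM in sham, 50.2, 71.5 and 86.0 CPM in WT at 1 d and 37.4, 53.3 and 79.2 CPM in Fgg390-396A at 1 d. Manf measured 54.5, 58.2 and 65.2 CPM in sham, 146, 224 and 232 CPM in WT at 1 d and 111, 156 and 207 CPM in Fgg390-396A at 1 d. Neither gene overlapped between sham and injury at 1 d, with log2 fold changes in WT of 2.01 ± 0.27 for Creld2 and 1.76 ± 0.24 for Manf. Manf overlaps Dcaf1 on the other strand, and whether the counting used strand is not given in the sources used here, so reads of the overlapping genes named in this text may be mixed.

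On the CPM scale, from counts with transcript length divided out, the lectin chaperones and the ER HSP90 were among the more abundant members. Calr, which holds glycoproteins during folding and binds calcium, measured 334, 405 and 434 CPM in sham, 842, 1175 and 1197 CPM in WT at 1 d and 612, 878 and 1237 CPM in Fgg390-396A at 1 d. Hsp90b1, whose product GRP94 folds integrins and Toll-like receptors, measured 468, 486 and 741 CPM in sham, 1062, 1206 and 1191 CPM in WT at 1 d and 867, 1117 and 1236 CPM in Fgg390-396A at 1 d. Sham replicate 3 was the highest of its group for both genes and stayed below every library at 1 d. The log2 fold changes in WT were 1.45 ± 0.22 for Calr, 1.03 ± 0.18 for Hsp90b1, 0.91 ± 0.18 for Canx and 1.06 ± 0.18 for Dnajc3, which encodes an inhibitor of the kinase PERK. Dnajb9, a J protein that restrains IRE1, was the exception among the 11, at 26.8 ± 3.11 CPM in sham (SD, n = 3), 35.4 ± 11.4 CPM in WT at 1 d and 26.2 ± 4.18 CPM in Fgg390-396A at 1 d (adjusted p = 0.36 and 1).

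The protein disulfide isomerases, which form and reshuffle the disulfide bonds of secreted and surface proteins, rose in 4 of 4 cases in both genotypes at 1 d, with median log2 fold changes of 1.35 in WT and 1.15 in Fgg390-396A. P4hb, the founding member of the family, went from 73.4 ± 16.1 CPM in sham to 212 ± 35.6 CPM in WT and 174 ± 29.4 CPM in Fgg390-396A (SD, n = 3). Pdia4 went from 34.6 ± 8.94 CPM to 101 ± 18.7 and 83.5 ± 18.7 CPM. Pdia3, which works with the lectin chaperones on glycoproteins, measured 145, 163 and 227 CPM in sham, 338, 405 and 364 CPM in WT at 1 d and 272, 379 and 372 CPM in Fgg390-396A at 1 d. Its log2 fold change of 1.05 ± 0.18 in WT was the smallest of the 4, and Pdia6 (1.17 ± 0.20) came next.

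Of the 4 genes for sensors, transcription factors and ER degradation, 1 rose and 1 fell in WT at 1 d. Xbp1, whose mRNA IRE1 splices, measured 70.8, 53.5 and 65.7 CPM in sham, 51.8, 65.5 and 61.8 CPM in WT at 1 d and 51.4, 54.5 and 69.8 CPM in Fgg390-396A at 1 d. The groups overlapped and the log2 fold changes were -0.09 ± 0.20 (adjusted p = 0.88) and -0.11 ± 0.20 (adjusted p = 0.85). A gene total does not separate spliced from unspliced Xbp1 mRNA, so splicing was not measured. Ern1, which encodes IRE1, measured 7.40, 7.06 and 6.41 CPM in sham and 6.57, 3.04 and 5.82 CPM in WT at 1 d, with no call (adjusted p = 0.32).

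Atf6 rose in WT by 0.61 ± 0.16 on the log2 scale (23.6 ± 4.99 to 36.0 ± 5.95 CPM, SD, n = 3, adjusted p = 0.012). In Fgg390-396A its change was 0.46 ± 0.16 (adjusted p = 0.09). Without sham replicate 3 Atf6 was also called in Fgg390-396A. Its call in WT was lost without sham replicate 1 or 2, without WT replicate 3 and with the compared groups fitted alone (adjusted p = 0.062 to 0.089). Herpud1 encodes an ER membrane protein that assembles the degradation complex and is itself a standard target of ER stress. It measured 48.7, 56.6 and 65.6 CPM in sham, 29.8, 43.1 and 34.2 CPM in WT at 1 d and 55.9, 44.1 and 68.3 CPM in Fgg390-396A at 1 d. The WT libraries lay below sham and the Fgg390-396A libraries overlapped it. Herpud1 was the 1 member lower in WT (-0.67 ± 0.22, adjusted p = 0.037) and was not called without sham replicate 2 or 3, without WT replicate 1 or 3, with the replicate block or with the compared groups fitted alone (adjusted p = 0.051 to 0.15). In Fgg390-396A the log2 fold change was -0.02 ± 0.21.

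Of the 6 genes of the ATF4 and CHOP arm, 2 rose in WT at 1 d. Asns, the asparagine synthetase and a direct target of ATF4, was near the detection limit in sham, at 0.223, 0.152 and 0.578 CPM, where 3 counts correspond to 0.0448 to 0.158 CPM. It measured 4.81, 6.77 and 12.4 CPM in WT at 1 d and 1.36, 1.96 and 1.29 CPM in Fgg390-396A at 1 d. The 3 groups did not overlap. Asns rose in WT by 4.59 ± 0.77 on the log2 scale (adjusted p = 0.00023), while in Fgg390-396A the value was 2.22 ± 0.72 (adjusted p = 0.059, and called without sham replicate 3 and by DESeq2). From the summed counts of 630 in WT and 34 in sham, the ratio was 22.7 with a 95% counting interval of 16.1 to 33.1, which covers counting error only.

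Chac1, a glutathione-degrading enzyme, and Trib3, a pseudokinase that binds ATF4, are further targets of this arm and were scarcely detected. Chac1 had 2 counts over the sham libraries and 78 over WT at 1 d, a ratio of 47.9 with a counting interval of 12.8 to 402, and was called in WT (adjusted p = 0.026). That call was lost without sham replicate 1 or 3 and without WT replicate 3. Trib3 had 9 and 115 counts, a ratio of 15.7 with a counting interval of 7.98 to 35.2, and was not called (adjusted p = 0.15), with 3.47 CPM in WT replicate 3 against 0.534 and 0.434 CPM in the other two. In Fgg390-396A at 1 d, Chac1 had 64 counts, a ratio to sham of 23.7 with a counting interval of 6.30 to 199.9. It was not called by edgeR (adjusted p = 0.13) and was called by DESeq2 (adjusted p = 0.046). Trib3 had 27 counts there (adjusted p = 0.88).

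Atf4 itself, which is controlled mainly at translation, measured 41.8, 30.3 and 33.3 CPM in sham, 37.8, 39.1 and 40.6 CPM in WT at 1 d and 44.0, 32.4 and 43.0 CPM in Fgg390-396A at 1 d. These values overlapped (adjusted p = 0.7 and 0.72). Ddit3, which encodes the pro-death factor CHOP, measured 14.3, 14.1 and 14.1 CPM in sham, 6.34, 5.72 and 7.57 CPM in WT at 1 d and 7.15, 4.00 and 9.52 CPM in Fgg390-396A at 1 d. All 6 injured libraries lay below the 3 sham libraries. The log2 fold changes of -1.11 ± 0.49 and -1.04 ± 0.48 did not pass the test (adjusted p = 0.14 and 0.23), and with the compared groups fitted alone the WT value did (adjusted p = 0.0069). Ddit3 overlaps Mars on the other strand. Ppp1r15a, the phosphatase subunit GADD34 that restores translation, measured 17.2, 6.07 and 3.62 CPM in sham and 8.78, 6.33 and 11.3 CPM in WT at 1 d. Sham replicate 1 was the highest of these, and it also had the highest summed level of 22 immediate early genes among the sham libraries, at 2326 CPM against 711 and 878.

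ATF4 binds the C/EBP-ATF response element (CARE), here searched as TGATGNAA. Its letters were in the promoters of Asns, Chac1 and Herpud1, 3 of the 30, and in 3.45% of all promoters, and Herpud1 also held the ERSE-II letters ATTGGNCCACG, found in 0.0304% of all. Asns and Chac1 rose in WT at 1 d, and Herpud1 fell with the limits given above. The matches are shown with 10 bases on each side, capitals marking the element, for Asns at chr6:7693215-7693242 on the minus strand and for Chac1 at chr2:119351039-119351066, Herpud1 CARE at chr8:94386307-94386334 and Herpud1 ERSE-II at chr8:94386367-94386397, all on the plus strand.
Asns CARE: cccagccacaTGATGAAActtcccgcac
Chac1 CARE: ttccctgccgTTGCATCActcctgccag
Herpud1 CARE: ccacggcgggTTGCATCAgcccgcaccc
Herpud1 ERSE-II: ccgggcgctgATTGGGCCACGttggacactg

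**Figure D4:**
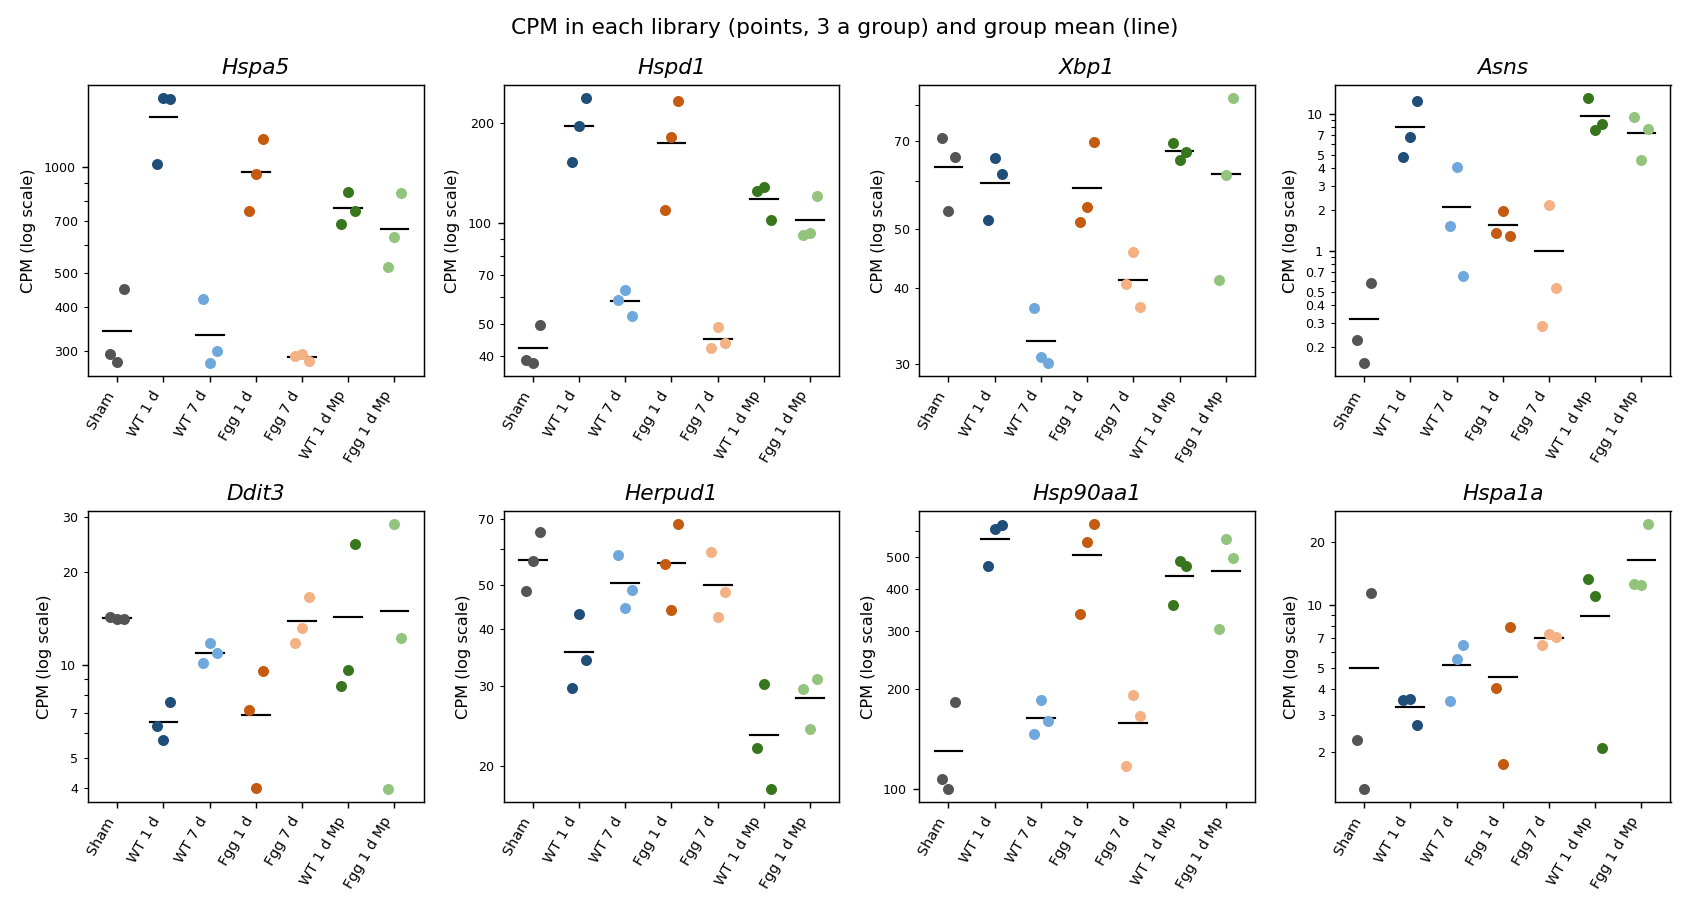
CPM on a log axis (y) of 8 genes in the 3 libraries (points) of each of the 7 groups (x axis, Fgg for Fgg390-396A), with the group mean as a line. Hspa5, Hspd1 and Hsp90aa1 are high at 1 d and near sham at 7 d, and Xbp1 is lowest in WT Mg at 7 d. The Asns points at 1 d lie higher in WT than in Fgg390-396A Mg, a difference that was not called.

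Of the 10 cytosolic heat shock genes, 4 rose at 1 d in both genotypes. These were the constitutive HSP70 Hspa8, the HSP90 genes Hsp90aa1, which is stress-inducible, and Hsp90ab1, and the HSP110 gene Hsph1. The call of Hsph1 in Fgg390-396A (1.61, adjusted p = 0.037) was lost with DESeq2 size factors, with the compared groups fitted alone, without Fgg390-396A replicate 2 or 3 and without sham replicate 1 or 2 (adjusted p = 0.056 to 0.21), and that in WT (1.87, adjusted p = 0.0095) without sham replicate 2 (adjusted p = 0.053). Hsp90aa1 measured 108, 100.3 and 183.2 CPM in sham, 469, 608 and 624 CPM in WT at 1 d and 338, 554 and 630 CPM in Fgg390-396A at 1 d, without overlap. Its log2 fold change was 2.12 ± 0.29 (adjusted p = 2.8e-05) in WT and 1.96 ± 0.29 (adjusted p = 0.00012) in Fgg390-396A. Hspa8, which also strips clathrin from vesicles, went from 345 ± 101 CPM in sham to 1024 ± 153 CPM in WT and 1015 ± 295 CPM in Fgg390-396A (SD, n = 3). Processed copies of Hspa8 elsewhere in the genome held 3.7% of the summed level of the gene and its copies.

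Hsf1, the transcription factor of the heat shock response, measured 15.4, 12.6 and 15.8 CPM in sham, 13.1, 13.8 and 12.8 CPM in WT at 1 d and 16.4, 16.6 and 18.1 CPM in Fgg390-396A at 1 d, with no call (adjusted p = 0.81 and 0.7). Hspa1a, the stress-inducible HSP70, measured 2.26, 1.33 and 11.4 CPM in sham, 3.51, 3.58 and 2.69 CPM in WT at 1 d and 4.03, 1.74 and 7.88 CPM in Fgg390-396A at 1 d. Hspa1b, its near copy, measured 0.478, 0.380 and 9.28 CPM in sham, 1.99, 1.52 and 1.91 CPM in WT at 1 d and 1.55, 0.503 and 6.59 CPM in Fgg390-396A at 1 d. Sham replicate 3 was the highest of these 9 libraries for both genes and the groups overlapped. The log2 fold changes in WT were -0.63 ± 0.67 for Hspa1a and -0.91 ± 0.93 for Hspa1b, and neither passed the test. Without sham replicate 3 the direction turned, to 0.86 for Hspa1a (adjusted p = 0.42) and 2.06 for Hspa1b (adjusted p = 0.11) in WT. In Fgg390-396A, Hspa1a went from -0.16 to 1.33 and Hspa1b from -0.25 to 2.72 (adjusted p = 0.27 and 0.057). Of the client-handling partners, Dnaja1 (0.80 ± 0.36), Dnajb1 (-0.46 ± 0.33) and the nucleotide exchanger Bag3 (0.54 ± 0.32) were not called in WT.

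The transcripts of Hspa1a and Hspa1b are 99.2% identical over 2201 bases, so reads may be split between them, and the sum of both was not called in any comparison either. Their promoters are almost as alike, with 247 of the 250 bases before the start equal (98.8%), at chr17:34972157-34972406 for Hspa1a and chr17:34959239-34959488 for Hspa1b, both on the minus strand of GRCm38.p6. They are shown because their levels went together in sham replicate 3, and the capitals mark the 3 bases that differ.
Hspa1a: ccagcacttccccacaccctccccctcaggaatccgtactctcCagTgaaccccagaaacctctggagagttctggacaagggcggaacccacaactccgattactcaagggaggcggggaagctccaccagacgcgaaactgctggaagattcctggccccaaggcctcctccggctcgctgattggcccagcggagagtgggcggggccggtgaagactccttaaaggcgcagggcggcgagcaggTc
Hspa1b: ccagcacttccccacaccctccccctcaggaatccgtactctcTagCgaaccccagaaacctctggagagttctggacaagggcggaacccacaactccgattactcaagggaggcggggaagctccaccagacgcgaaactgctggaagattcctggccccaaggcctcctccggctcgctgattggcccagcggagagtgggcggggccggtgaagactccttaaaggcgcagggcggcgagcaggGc

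Hspd1 and Hspe1 encode the 2 parts of the mitochondrial chaperonin, the HSP60 barrel and its HSP10 lid. Hspd1 had the smallest adjusted p of the 37 genes in both genotypes at 1 d. It measured 39.0, 38.0 and 49.5 CPM in sham, 153, 197 and 238 CPM in WT at 1 d and 110, 182 and 233 CPM in Fgg390-396A at 1 d, with no overlap. The log2 fold change was 2.22 ± 0.23 (a fold of 4.64, adjusted p = 2.1e-06) in WT and 2.05 ± 0.23 (a fold of 4.14, adjusted p = 9.8e-06) in Fgg390-396A. Hspe1 measured 45.7, 44.5 and 46.9 CPM in sham, 125, 135 and 128 CPM in WT at 1 d and 94.98, 127 and 199 CPM in Fgg390-396A at 1 d. It rose 2.82-fold in WT and 3.08-fold in Fgg390-396A. The genes lie head to head (Hspd1 at chr1:55077835-55088243 on the minus strand and Hspe1 at chr1:55088132-55091307 on the plus strand, GENCODE M21 on GRCm38), their annotations overlap, and they share a promoter. The heat shock element letters GAANNTTCNNGAA, which HSF1 binds, were found there as 2 overlapping matches. Of the 30 members searched, these 2 genes alone held them, against 0.466% of all promoters. The searched promoters of Hspa1a, Hspa1b, Hsph1, Dnaja1, Dnajb1 and Bag3 did not. The matches are shown in capitals from chr1:55088049-55088086 on the plus strand.
Hspe1 and Hspd1: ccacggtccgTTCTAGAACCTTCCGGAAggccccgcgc

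By 7 d most of these genes were back near sham. In WT, 1 member was higher and 1 lower than sham (2.69% of all genes tested were called, 2.42% higher and 0.265% lower), and 1 remained with a log2 fold change above 1 in size as well (2.02% of all genes). In Fgg390-396A, 0 were called by edgeR's quasi-likelihood test (0.886% of all genes), with 4 at an unadjusted p under 0.05 (7.59% of all genes) and 1 called by DESeq2. The member lower in WT was Xbp1, at 37.1, 30.9 and 30.1 CPM, all below the sham libraries. Its log2 fold change was -0.95 ± 0.20 (a fold of 0.516, adjusted p = 0.011). In Fgg390-396A at 7 d Xbp1 measured 40.6, 45.9 and 37.2 CPM, also below sham (-0.62 ± 0.20, adjusted p = 0.26), and this was the gene called there by DESeq2 (adjusted p = 0.032). The member higher in WT was Hspe1, at 108, 76.4 and 93.6 CPM (1.02 ± 0.24, adjusted p = 0.024), while Hspd1 stood at 58.9, 63.2 and 52.6 CPM (adjusted p = 0.43). The count of 2 in WT became 0 without sham replicate 1, 1 without sham replicate 2 or without any of the 3 WT libraries at 7 d, and 3 without sham replicate 3. Hsp90ab1 was called higher in WT only in that last fit (0.87, adjusted p = 0.04). With all libraries its log2 fold change was 0.36 (adjusted p = 0.63). Xbp1 lost its call without sham replicate 1 and without WT replicate 2 or 3, and Hspe1 without any 1 of the sham libraries and without WT replicate 1 or 3.

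Hspa5 at 7 d measured 421, 277 and 299 CPM in WT and 290, 294 and 281 CPM in Fgg390-396A. The Fgg390-396A values lay within the range of sham and the WT values overlapped it. Asns at 7 d measured 1.53, 4.11 and 0.657 CPM in WT and 0.282, 2.15 and 0.538 CPM in Fgg390-396A. The WT values lay above sham and did not pass the test (adjusted p = 0.058). They did without sham replicate 3 or WT replicate 3, with the stricter filter on low counts (adjusted p = 0.047) and by DESeq2 (adjusted p = 0.0047). Chac1 had 58 counts in WT at 7 d and 2 in sham, a ratio of 39.59 with a counting interval of 10.48 to 334.7. WT replicate 1 was at 0. Chac1 was not called by edgeR (adjusted p = 0.13) and was called by DESeq2 (adjusted p = 0.015). In Fgg390-396A at 7 d it had 4 counts. Ddit3 stood at 10.1, 11.8 and 10.9 CPM in WT and 11.8, 13.1 and 16.6 CPM in Fgg390-396A at 7 d, and Atf4 at 30.4, 19.8 and 35.3 CPM and 40.1, 33.8 and 33.3 CPM. Neither gene was called against sham at 7 d. Hspa1a measured 3.49, 5.53 and 6.45 CPM in WT and 6.48, 7.29 and 7.06 CPM in Fgg390-396A, and Hspa1b 1.63, 2.48 and 3.29 CPM and 1.54, 3.34 and 3.51 CPM, all within the range of the sham libraries. The upper end of that range is sham replicate 3 alone, and all 6 libraries at 7 d lay above the other 2 sham libraries for both genes. Without sham replicate 3 the log2 fold changes at 7 d were 1.52 and 1.94 for Hspa1a and 2.51 and 2.69 for Hspa1b, in WT and Fgg390-396A, and were not called (adjusted p = 0.18 to 0.38). Hsf1 measured 14.7, 10.0 and 12.6 CPM in WT and 13.5, 15.6 and 17.2 CPM in Fgg390-396A.

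Between 1 d and 7 d, 24 of the 37 genes fell in WT and 20 in Fgg390-396A, and 0 rose by edgeR (10.3% and 5.64% of all genes tested were called, 6.6% and 4.56% lower, 3.7% and 1.08% higher). Beside those 0, Herpud1 in WT was higher at 7 d at an unadjusted p under 0.05 and called by DESeq2, and Ppp1r15a in Fgg390-396A was higher at an unadjusted p under 0.05, not called by DESeq2 and called with the compared groups fitted alone (1.08, adjusted p = 0.041). The falls took in 11 of 11 ER chaperones in WT and 10 of 11 in Fgg390-396A, and 4 of 4 isomerases in both. Of these, Dnajb9 in WT (adjusted p = 0.049) lost its call with the replicate block (adjusted p = 0.066), with DESeq2 size factors, with the compared groups fitted alone and in 5 of the fits that left out 1 library. Canx in Fgg390-396A lost its call with the compared groups fitted alone (adjusted p = 0.061) and in 4 of the fits that left out 1 library. Manf went to 57.7, 29.9 and 43.1 CPM in WT and 45.6, 39.6 and 46.97 CPM in Fgg390-396A at 7 d, and fell by 2.20 ± 0.24 and 1.84 ± 0.24 on the log2 scale. Creld2 went to 17.7, 12.2 and 14.7 CPM and 12.1, 14.5 and 11.7 CPM, and fell by 2.22 ± 0.27 and 2.15 ± 0.27. Hyou1 went to 17.4, 17.4 and 15.1 CPM and 15.8, 16.3 and 15.1 CPM. The 1 d and 7 d values of these 3 genes did not overlap in either genotype. Hspa5 fell by 2.06 ± 0.25 in WT, Hspd1 by 1.96 ± 0.23 in Fgg390-396A, and Xbp1 by 0.87 ± 0.20 in WT (adjusted p = 0.0077).

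Other genes of the same pathways were counted at 1 d in the same way. Of all genes tested, 10.7% were higher and 5.97% lower in WT, and 7.6% and 2.19% in Fgg390-396A. Of 24 genes for translocation into the ER and signal peptide cleavage, 17 were higher in WT and 12 in Fgg390-396A, with median log2 fold changes of 0.91 and 0.65. Ssr4 and Ssr2, subunits of the translocon-associated complex, had log2 fold changes of 1.59 ± 0.17 and 1.44 ± 0.18 in WT and 1.37 ± 0.17 and 1.36 ± 0.18 in Fgg390-396A. Of 24 other ER folding genes, 14 were higher and 1 lower in WT, and 10 and 1 in Fgg390-396A. Nucb2, a calcium-binding protein, went from 15.4 ± 0.568 CPM to 50.9 ± 5.37 CPM in WT (SD, n = 3), and Ero1l, the oxidase that recharges the isomerases, from 7.02 ± 0.905 CPM to 28.6 ± 5.23 CPM. The prolyl isomerase Fkbp7 was the gene that fell in both, by 2.35 ± 0.51 and 1.96 ± 0.50. Of 19 genes for ER-associated degradation, 5 were higher and 1 lower in WT, and 1 higher in Fgg390-396A. Vcp, the ATPase that pulls clients out of the ER, was higher in both (1.07 ± 0.19 and 0.81 ± 0.19) and Herpud2, the relative of Herpud1, was the lower one in WT (-0.62 ± 0.20).

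Of 27 other genes of the integrated stress response, 16 were higher and 2 lower in WT at 1 d, and 9 and 1 in Fgg390-396A, with medians of 1.01 and 0.59. The shares of all genes tested were again 10.7% higher and 5.97% lower in WT, and 7.6% and 2.19% in Fgg390-396A. Shmt2, which makes mitochondrial glycine and folate units, had the smallest adjusted p of these and went from 4.90 ± 1.02 CPM in sham to 33.9 ± 6.12 CPM in WT and 26.9 ± 5.98 CPM in Fgg390-396A. Eif2s1, the initiation factor subunit that the stress kinases phosphorylate, rose by 1.61 ± 0.18 and 1.45 ± 0.18. Ddit4, an inhibitor of mTORC1, fell by 2.35 ± 0.71 and 2.75 ± 0.72, and Eif2ak3, which encodes PERK, fell in WT by 1.00 ± 0.32. Of 29 other cytosolic chaperones and co-chaperones, 9 were higher in WT, and 10 were higher and 1 lower in Fgg390-396A. Bag1, a nucleotide exchanger of HSP70, rose by 1.86 ± 0.17 and 1.59 ± 0.17 and was also higher at 7 d, by 1.22 ± 0.17 in WT and 0.92 ± 0.17 in Fgg390-396A. Eif2ak2, the double-stranded RNA kinase PKR, was higher at 7 d as well, by 1.38 ± 0.24 and 1.18 ± 0.23.

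The comparison of Fgg390-396A with WT asks whether fibrinogen binding to CD11b/CD18 bears on these genes. At 1 d in Mg, 0 of the 37 were called by edgeR (0.042% of all genes tested) and 0 by DESeq2, with 3 at an unadjusted p under 0.05 (5.08% of all genes). These were Asns, Herpud1 and Hspa5. Asns was lower in Fgg390-396A by 2.37 ± 0.68 on the log2 scale (adjusted p = 0.73), and lower in 3 of 3 libraries than in every WT library. Its ratio of summed counts was 0.193 with a counting interval of 0.163 to 0.226, which covers counting error only and not the spread between libraries. Herpud1 was 0.65 ± 0.22 higher in Fgg390-396A, with every Fgg390-396A library above every WT library (adjusted p = 0.86). Hspa5 was at -0.51 ± 0.24 with libraries that overlapped (adjusted p = 0.89). The summed microglia markers were higher in Fgg390-396A than in WT Mg at 1 d, 6090 to 7805 against 3301 to 5322 CPM, and their part in these values was not tested.

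At 7 d in Mg, 0 of the 37 differed between genotypes by edgeR (0.0378% of all genes) and 0 by DESeq2, with Chac1 at an unadjusted p under 0.05 (3.34% of all genes, -4.04 ± 1.46, adjusted p = 1). In Mp at 1 d, 0 differed (0.206% of all genes, 0 by DESeq2), with Dnajb9 at an unadjusted p under 0.05 (11.5% of all genes, 0.58 ± 0.28, adjusted p = 0.43). The genotype effect was also compared between Mp and Mg at 1 d and between 7 d and 1 d in Mg. In the first of these, 0 members were called (0.0252% of all genes, 0 by DESeq2), with Dnajb9 (1.02 ± 0.39, adjusted p = 0.53), Asns (1.95 ± 0.92, adjusted p = 0.59) and Atf6 (0.48 ± 0.23, adjusted p = 0.59) at an unadjusted p under 0.05 (8.37% of all genes). In the second, 0 were called (0.0% of all genes, 0 by DESeq2), with Herpud1 at an unadjusted p under 0.05 (2.74% of all genes, -0.67 ± 0.31, adjusted p = 1). These intervals are wide, and with 3 libraries a group the data do not show that the genotypes were alike.

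**Figure D5:**
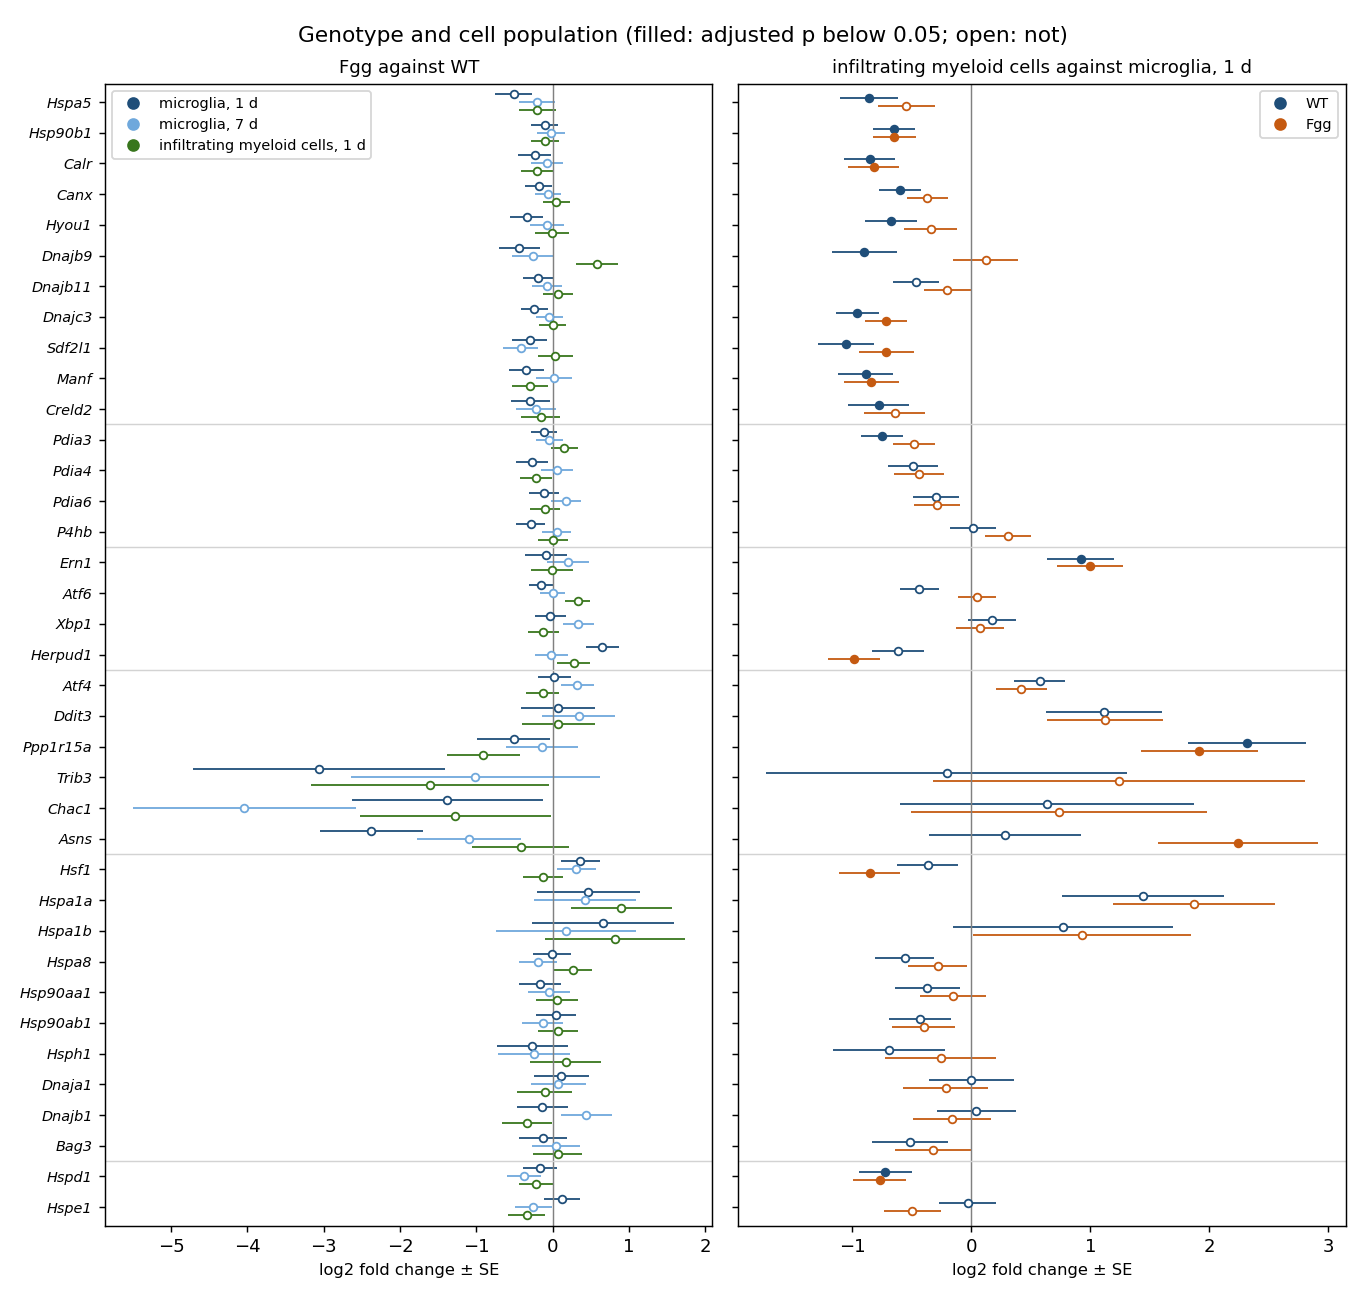
The log2 fold change (x axis, ± SE) of each of the 37 genes (y axis, by role) for Fgg390-396A against WT (left, in Mg at 1 d, Mg at 7 d and Mp at 1 d) and for Mp against Mg at 1 d (right, in WT and Fgg390-396A, marked Fgg), filled where the adjusted p was under 0.05. No point is filled on the left, and on the right most ER chaperones lie below 0 while Ppp1r15a and Ern1 lie above it.

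At 1 d, infiltrating myeloid cells had lower levels of 10 of 11 ER chaperones than microglia in WT and of 5 of 11 in Fgg390-396A, and higher levels of Ppp1r15a and Ern1 in both. In WT, 2 of the 37 were higher and 12 lower in Mp (15.7% of all genes tested were called, 7.56% higher and 8.12% lower), and in Fgg390-396A 3 were higher and 8 lower (21.4%, 9.33% higher and 12.1% lower), a split that was 6 higher and 8 lower by DESeq2. With a log2 fold change above 1 in size as well, 2 members were called in each genotype (11.9% and 16.7% of all genes). With the compared groups fitted alone, 4 of the 10 ER chaperones stayed called in WT (Calr, Dnajc3, Manf and Sdf2l1), and all 5 calls in Fgg390-396A (Calr, Dnajc3, Hsp90b1, Manf and Sdf2l1) were lost (adjusted p = 0.1 to 0.16). The cells differ in type as well as in origin, and Mp held markers of neutrophils, monocytes and border-associated macrophages. Their summed levels in the Mp libraries were 2797 to 13270, 2721 to 3748 and 1348 to 2218 CPM.

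Dnajc3 measured 40.2, 44.1 and 38.0 CPM in WT Mp and 37.1, 38.2 and 47.1 CPM in Fgg390-396A Mp, against 63.9, 93.2 and 80.4 CPM and 55.5, 70.5 and 75.3 CPM in Mg. The populations did not overlap in either genotype (-0.96 ± 0.18, adjusted p = 0.00077, and -0.72 ± 0.18, adjusted p = 0.0064). Calr measured 620, 639 and 523 CPM in WT Mp and 565, 440 and 541 CPM in Fgg390-396A Mp, below every Mg library at 1 d (-0.85 ± 0.21 and -0.82 ± 0.21). Sdf2l1 measured 88.4, 86.2 and 76.6 CPM in WT Mp and Pdia3 230, 233 and 196 CPM, both below the WT Mg libraries. Hsp90b1 in Fgg390-396A Mp measured 721, 640 and 699 CPM, below the Mg libraries of that genotype. Hspa5 measured 689, 848 and 749 CPM in WT Mp (-0.86 ± 0.24, adjusted p = 0.018) and 518, 633 and 840 CPM in Fgg390-396A Mp, where it was not called (adjusted p = 0.12).

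Ppp1r15a measured 46.0, 36.2 and 49.2 CPM in WT Mp and 11.02, 16.9 and 42.1 CPM in Fgg390-396A Mp, above every Mg library of the same genotype at 1 d. The log2 fold changes were 2.31 ± 0.50 (adjusted p = 0.0026) and 1.92 ± 0.49 (adjusted p = 0.0079). Without Fgg390-396A Mp replicate 3, the library at 42.1 CPM, the latter was 1.18 and was not called (adjusted p = 0.077). Immediate early genes that also respond to cell dissociation moved the same way, 14 of 22 higher in WT Mp and 17 of 22 in Fgg390-396A Mp. Their medians were 1.96 and 1.94, and their part in the Ppp1r15a difference was not tested. Of all genes tested, 7.56% were higher in WT Mp and 9.33% in Fgg390-396A Mp. Ern1 measured 12.3, 6.21 and 10.6 CPM in WT Mp, where 1 library lay within the Mg range, and 10.4, 8.96 and 9.60 CPM in Fgg390-396A Mp, all above Mg (0.92 ± 0.28 and 1.00 ± 0.28). The Ern1 call was lost in WT with the compared groups fitted alone and without WT Mg replicate 2 or WT Mp replicate 1 or 3, and in Fgg390-396A without Mg replicate 2.

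Asns was high in Mp of both genotypes, at 13.04, 7.69 and 8.38 CPM in WT and 9.49, 4.59 and 7.75 CPM in Fgg390-396A. It passed the test against Mg in Fgg390-396A (2.24 ± 0.67, adjusted p = 0.022), where Mg was low, and not in WT (0.28 ± 0.64, adjusted p = 0.88). Without Fgg390-396A Mg replicate 1 or 3 the Asns call was lost (adjusted p = 0.079 and 0.073). Herpud1 measured 21.9, 30.3 and 17.8 CPM in WT Mp and 29.6, 24.2 and 31.1 CPM in Fgg390-396A Mp. It was lower than in Mg in Fgg390-396A (-0.99 ± 0.22, adjusted p = 0.0026), while in WT the value was -0.61 ± 0.22 (adjusted p = 0.063). The test of the genotype effect in Mp against that in Mg did not pass for Asns (adjusted p = 0.59) or Herpud1 (adjusted p = 0.84). Hspa1a measured 13.4, 11.1 and 2.07 CPM in WT Mp and 12.6, 12.6 and 24.5 CPM in Fgg390-396A Mp, and was not called in either by edgeR (adjusted p = 0.18 and 0.057). In Fgg390-396A it was called higher by DESeq2 (adjusted p = 0.013), with DESeq2 size factors (0.043), with the compared groups fitted alone (0.048) and with the stricter filter on low counts (0.035). Hspa1b measured 4.93, 3.05 and 1.22 CPM in WT Mp and 5.15, 4.79 and 6.35 CPM in Fgg390-396A Mp. Hsf1 was lower in Mp than in Mg in Fgg390-396A, at 7.41, 6.49 and 14.3 CPM (-0.85 ± 0.26, adjusted p = 0.022), a call lost with the compared groups fitted alone (adjusted p = 0.19) and without Mg replicate 3 or Mp replicate 1 or 2. Atf4 (55.5, 47.8 and 71.6 CPM in WT Mp, 41.1, 64.0 and 54.7 CPM in Fgg390-396A Mp), Ddit3 (8.51, 9.63 and 24.5 CPM, 3.98, 28.5 and 12.2 CPM) and Xbp1 (69.4, 65.1 and 67.0 CPM, 41.3, 61.4 and 82.2 CPM) were not called between Mp and Mg by edgeR. DESeq2 called Atf4 higher in Mp in WT (0.64, adjusted p = 0.019) and in Fgg390-396A (0.54, adjusted p = 0.048) and Ddit3 higher in Fgg390-396A (1.22, adjusted p = 0.046), and the stricter filter on low counts also called Atf4 in WT (adjusted p = 0.037).

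Among the other genes of the integrated stress response, the cystine transporter gene Slc7a11 (3.16 ± 0.47 and 4.88 ± 0.51) and Atf3 (2.51 ± 0.40 and 2.45 ± 0.40) were higher in Mp, and the serine synthesis genes Phgdh (-1.76 ± 0.25 and -1.93 ± 0.25) and Psat1 (-1.79 ± 0.37 and -1.76 ± 0.37) were lower. The counts of members called between Mp and Mg moved with single libraries. The 14 in WT became 4 without WT Mg replicate 2, 5 without WT Mg replicate 3, 7 without WT Mp replicate 1 and 5 without WT Mp replicate 3, and the 11 in Fgg390-396A became 5 without Fgg390-396A Mg replicate 3 and 7 without Fgg390-396A Mp replicate 1.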

How the data were processed

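Sorted CD45 low CD11b+ microglia (Mg) and CD45 high CD11b+ infiltrating myeloid cells (Mp) of 21 libraries, 3 in each of 7 groups, were sequenced as 100 base paired-end reads. The authors mapped the reads to GRCm38 and quantified them with salmon. They deposited expected counts scaled so that transcript length is divided out within a library, not normalized between libraries. Gene names were joined here from GENCODE M21 (GRCm38). The submitters' processing notes name R 4.2.0 and DESeq2 1.36.0. Whether the counting used strand is not given in the sources used here, and 563 of 45706 gene IDs had no GENCODE entry.

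The deposited expected counts were rounded to whole numbers (56.8% of genes held a value that was not whole). CPM were computed here with TMM-scaled library sizes (factors 0.735 to 1.55). Genes with at least 5 counts over all libraries (23815) were fitted in 1 edgeR 4.0.16 quasi-likelihood model of all 21 libraries (R 4.3.3), 2-sided, and called at a Benjamini-Hochberg adjusted p under 0.05 over all genes, with no minimum fold. SEs were derived from the F values. The common biological coefficient of variation was 0.643. Tested on data simulated for WT at 1 d against sham with 23221 genes, 125 of 200 genes changed by a log2 fold of 2 were recovered (62.5%) and 2 others were called. Counting intervals are at 95% and cover counting error only. Replicates differed by more than counting noise (chi-square per degree of freedom of 20.0 or more).

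The members and gene lists were chosen with earlier results of these data known. Values in each library are given for Hspa5, Xbp1, Atf4, Ddit3, Hsf1, Hspa1a, Hspa1b and, in each comparison, the called members (up to 4 higher and 4 lower) of smallest adjusted p. Of each other list, up to 2 genes in each direction are named. Other genes given by library (Hsp90aa1, Trib3 and Hspd1 at 7 d) were chosen after their values were seen. Promoters are from RefSeq (GRCm38.p6), and 7 members (Atf6, Hsf1, Hsp90aa1, Hsp90ab1, Hspa8, Hyou1, Manf) had no entry. Near copies of the members were found with blastn 2.17.0. The alternatives were DESeq2 1.42.0 (test and size factors), other filters and thresholds, fits of the compared groups alone, a replicate block, removal of ribosomal RNA genes and each library left out in turn.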

Additional observations from a re-analysis of the deposited data

How the results depend on the processing

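No direction of a called value changed under any alternative run. Values that were not called did turn, among them Hspa1a and Hspa1b against sham at 1 d without sham replicate 3 (-0.63 to 0.86 and -0.91 to 2.06 in WT). Members called in WT Mg at 7 d against sham numbered 2, 1 with a log2 fold change above 1 in size, and 4 by DESeq2, and in Fgg390-396A Mg at 7 d 0 and 1 by DESeq2. Between Mp and Mg, the 14 in WT became 2 with that fold bar and 6 with the compared groups fitted alone (1 higher, 5 lower), and the 11 in Fgg390-396A became 2 and 5 (4 higher, 1 lower). With each library left out in turn, the count ranged from 21 to 24 in WT and 18 to 22 in Fgg390-396A at 1 d against sham, 0 to 3 and 0 to 0 at 7 d against sham, 19 to 24 and 17 to 22 at 7 d against 1 d, 4 to 17 and 5 to 13 between Mp and Mg, and 0 to 0 for the genotypes and their interactions. The cause was not tested. Single gene values were compared for members called in a comparison and for Hspa5, Xbp1, Atf4, Ddit3, Hsf1, Hspa1a and Hspa1b. They numbered 1571 under the other alternatives, of which 34 lost and 10 gained a call. Under left-out libraries they numbered 1272, of which 124 lost and 5 gained one. Gains by other members are not in these counts, such as Asns and Chac1 in WT at 7 d against sham by DESeq2. Dnaja1 in Fgg390-396A at 7 d against 1 d is another, gained by DESeq2 and with the replicate block. Whether replicate numbers pair the samples was not settled. Correlations of same-numbered libraries were -0.034 to 0.210, and all 6 libraries of a comparison were best with their own number in 0 of 11. For Fgg390-396A against WT Mg at 1 d and at 7 d, and for Mp against Mg in WT, 5 of the 6 were. A replicate block gave 23 members in WT and 20 in Fgg390-396A at 1 d, and 2 and 0 at 7 d. It gave 23 and 21 at 7 d against 1 d and 13 and 11 between Mp and Mg. For the genotypes and their interactions it gave 0. DESeq2 size factors moved the median of all genes by -0.12 in Fgg390-396A at 1 d against sham and by 0.12 between Mp and Mg in Fgg390-396A. At a log2 fold of 2 the simulation recovered 62.5% of changed genes. Those were drawn at random from expressed genes, so the share is not a recovery for the members. Smaller differences could be missed with 3 libraries a group.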

Other observations

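The cytosolic chaperonin TRiC, which folds actin and tubulin, was also higher at 1 d. Of its 8 subunit genes, 8 were higher at 1 d than in sham in WT and 8 in Fgg390-396A, with median log2 fold changes of 1.67 and 1.45, and 8 fell between 1 d and 7 d in both genotypes. Of all genes tested, 10.7% and 7.6% were higher at 1 d, and 6.6% and 4.56% fell between 1 d and 7 d. Cct2 went from 36.9 ± 5.61 CPM in sham to 133 ± 25.8 CPM in WT and 113 ± 27.8 CPM in Fgg390-396A (SD, n = 3). Tcp1 rose by 1.70 ± 0.18 on the log2 scale in WT, and Cct6a by 1.70 ± 0.20 in Fgg390-396A.

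Of 10 other mitochondrial chaperones and proteases, 5 were higher at 1 d in WT and 3 in Fgg390-396A, with medians of 0.47 and 0.40. Of all genes tested, 10.7% were higher and 5.97% lower at 1 d in WT, and 7.6% and 2.19% in Fgg390-396A. Hspa9, the mitochondrial HSP70, rose by 1.70 ± 0.20 in WT and 1.31 ± 0.20 in Fgg390-396A, and the protease gene Lonp1 by 1.41 ± 0.32 in WT. Of 22 immediate early genes, 4 were higher and 4 lower at 1 d in WT Mg, and 1 and 3 in Fgg390-396A Mg. Ier3, a survival gene, was higher in both (2.70 ± 0.49 and 1.69 ± 0.48) and Rhob was lower in both (-1.86 ± 0.26 and -1.73 ± 0.26).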
